A study of Homo sapiens with 17 samples.

Results

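The TNF-α response of SW480 cells depleted of mutant p53 was measured by mRNA-seq as the change between 0 h and 16 h of TNF-α, over 14800 of the 26457 genes listed, namely those whose mean over 8 libraries reached 2.5 normalized reads. SW480 cells come from a human colon cancer and their p53 carries the R273H substitution (mutp53). The cells carried a doxycycline-inducible short hairpin RNA, against p53 in the mutp53-depleted groups (shp53) and against LacZ in the control groups (shLacZ), and all groups received doxycycline at 1 µg/ml. TNF-α was given at 12.5 ng/ml for 0 or 16 h, and each of the 4 groups held 2 biological replicates, A and B, so that the depleted response rested on 4 of the 8 libraries. All groups derive from this 1 cell line and were kept under puromycin selection, and whether each hairpin line is a single clone is not given in the sources used here. Normalized reads are the reads on the exons of a gene multiplied by 1 factor per library, under which all libraries have the same total. The 4 mutp53-depleted libraries held between 6749107 and 13809578 reads on genes and the 4 control libraries between 6108488 and 12751404, and at this depth a fold against a group without a read is given as a bound computed at 3 reads per library. Replicate libraries of a group correlated at 0.986 to 0.990 over genes (Pearson r of log2 values), a description across genes.

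TNF-α binds TNF receptor 1 and assembles a complex of adaptors and ubiquitin ligases that activates the IκB kinases. These release NF-κB, a family of 5 transcription factor subunits, to the nucleus, and kinase cascades through JNK and p38 act on AP-1 factors in parallel. The induced genes include chemokines, cytokines, adhesion molecules and proteases, together with inhibitors of NF-κB itself that close the loop. In colon epithelium, prolonged TNF-α signalling is a feature of chronic inflammation. Mutant p53 is known to lose its sequence-specific activity on wild-type targets while the protein accumulates.

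Of the colon epithelial markers, EPCAM stood at 2404 and 2367 normalized reads and KRT8 at 21362 and 21633 in depleted cells at 0 h, while CDX1 and CDH17 were at or near 0 in all libraries. Of 13 markers of other cell types, 6 reached the level required for testing, and PTPRC, which marks leukocytes, was at 0 in all 8 libraries. The summed level of those 6 was 251 and 288 normalized reads at 0 h and 175 and 186 at 16 h.

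In mutp53-depleted cells 275 genes were called higher after 16 h of TNF-α (1.86% of those tested) and 666 were called lower (4.5%). A call required a fold change of at least 2 and a Benjamini-Hochberg adjusted p under 0.05, with limma on log2(normalized reads + 1) in a model of the 4 group means, and fold changes on this scale understate those of low genes. At any fold, 3957 genes had an adjusted p under 0.05. The genes called higher had a median log2 fold change of 1.67, and 107 of them rose at least 4-fold and 37 at least 8-fold. The genes called lower had a median of -1.48, with 161 at least 4-fold and 19 at least 8-fold lower. The rises therefore reached further than the falls, and the falls were more numerous. With libraries paired by column letter only, 232 of the 275 (84.4%) were at least 2-fold higher in both A and B. At least 2-fold lower in both were 513 of the 666 (77.0%). The genes were chosen on these same libraries, so the shares are no independent replication. The 0 h and 16 h libraries did not overlap for all of the 275 and 665 of the 666, against 25.9% of tested genes that were apart and higher and 39.3% apart and lower. The genes called higher took 0.697% and 0.671% of all normalized reads at 0 h and 1.94% and 1.89% at 16 h. The genes called lower went from 1.79% and 1.68% to 0.709% and 0.629%. The median of all tested genes was -0.06, which is the value against which list medians are read below.

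**Figure D1:**
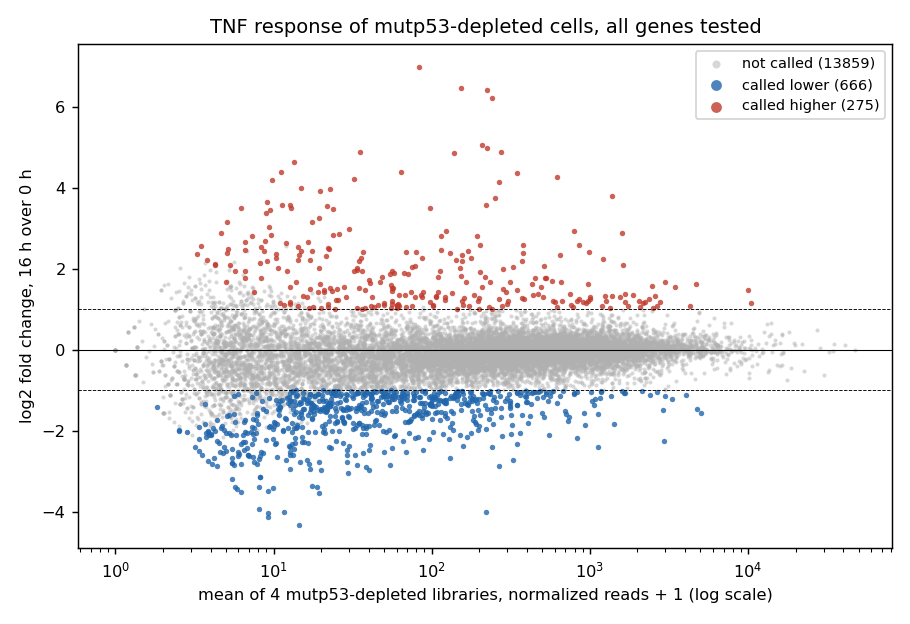
TNF-α response of mutp53-depleted cells for all 14800 genes tested: mean normalized reads + 1 of the 4 depleted libraries (log axis) against the log2 fold change of 16 h over 0 h, with the 275 genes called higher in red and the 666 called lower in blue. Dashed lines mark 2-fold, and the rises reach 7.0 whereas the falls end at -4.34.

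MMP9, a gelatinase that degrades matrix collagen, had the largest rise, from 0.67 and 0 normalized reads at 0 h to 172 and 158 at 16 h (log2 fold change 7.0 ± 0.46, SE, limma adjusted p = 2.35e-09). The 0 h value rested on 1 read, and MMP9 was 369-fold higher by pooled reads, with an exact 95% counting interval of 65.8 to 14631. SERPINB2, an inhibitor of the urokinase protease, went from 2.01 and 2.74 to 302 and 299.9 (log2 fold change 6.49 ± 0.48, SE, limma adjusted p = 1.08e-08). CCL2, a chemokine that attracts monocytes, went from 5.36 and 2.74 to 576 and 305 (log2 fold change 6.43 ± 0.29, SE, limma adjusted p = 2.33e-11). It was 109-fold higher as a ratio of group means, not of pooled reads, with only 8 and 2 reads at 0 h. The 16 h libraries of these 3 genes lay far above the 0 h libraries, and the CCL2 replicates at 16 h differed from each other while staying apart from 0 h. IL32, a cytokine of stimulated epithelial and lymphoid cells, went from 6.70 and 4.11 to 473 and 471 (log2 fold change 6.24 ± 0.24, SE, limma adjusted p = 3.94e-12). C3, the central protein of complement, went from 15.4 and 6.86 to 519 and 283 (log2 fold change 5.08 ± 0.34, SE, limma adjusted p = 2.54e-09). Neither gene overlapped between times. Of 11 complement genes tested, C3 alone was called higher and 1 was called lower, with a list median of -0.71. TNFRSF9, the costimulatory receptor 4-1BB, went from 18.8 and 8.23 to 464 and 394. CSF2, which encodes the growth factor GM-CSF, went from 14.1 and 20.6 to 541 and 523. ROBO4, a guidance receptor best known in endothelium, went from 8.04 and 8.23 to 287 and 246. The log2 fold changes of these 3 were 4.99, 4.89 and 4.87, with limma adjusted p of 1.53e-07, 5.17e-10 and 1.88e-07. ITGAM, an integrin chain usually found on myeloid cells, was near the floor at 0 h (2.01 and 0) and at 27.7 and 25.9 at 16 h. BMP2, a ligand of the TGF-β superfamily, went from 3.35 and 1.37 to 52.0 and 67.9. These values place both well below MMP9 or CCL2 in level, although their 0 h and 16 h libraries did not overlap.

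**Figure D2:**
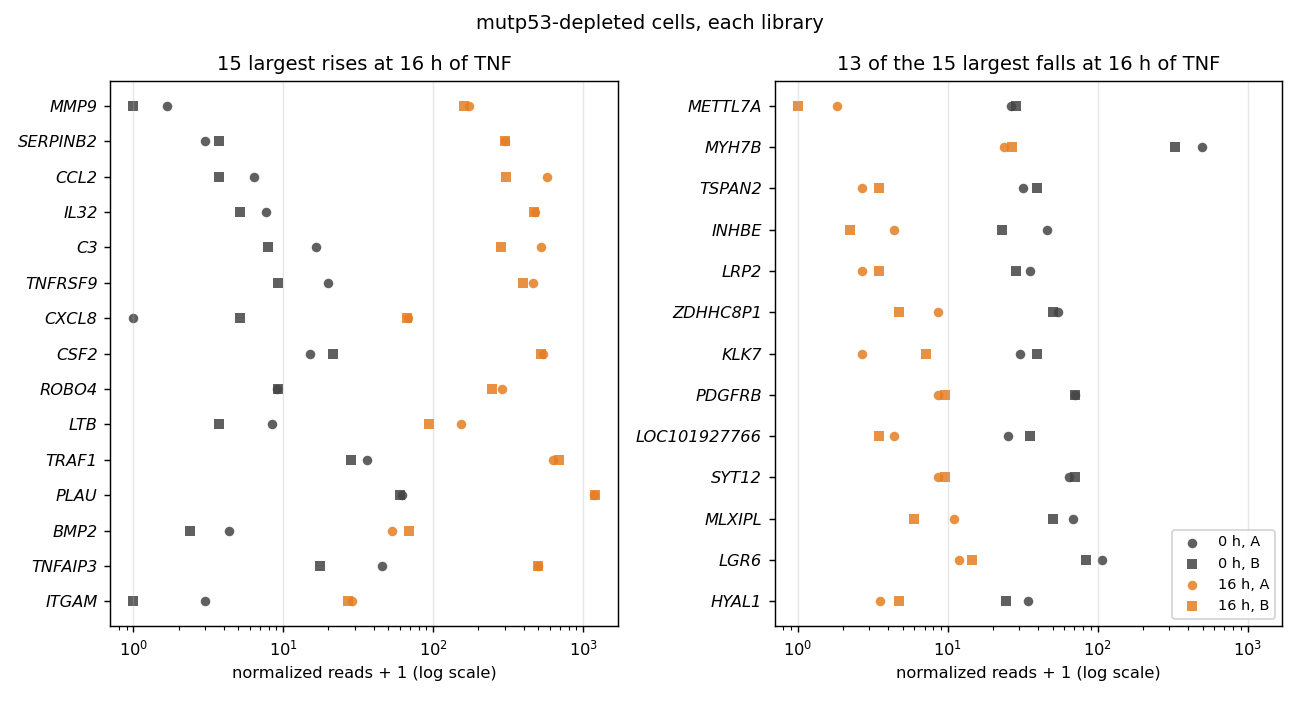
Normalized reads + 1 (log axis) of the 15 genes with the largest rise and 13 of the 15 with the largest fall in mutp53-depleted cells, among those with at least 20 normalized reads in both libraries of the higher group. Grey points are 0 h and orange points 16 h, circles replicate A and squares replicate B. In none of the 28 genes do the 2 times overlap, which follows from their choice by size of change on these libraries. Of all tested genes, 25.9% were apart and higher and 39.3% apart and lower.

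Of the NF-κB pathway itself, 2 of 5 subunits, 5 of 10 inhibitors and 3 of 17 genes of the receptor complex were called higher, and none was called lower. RELB, the partner of p52 in the noncanonical pathway, went from 105 and 134 to 662 and 597 normalized reads (log2 fold change 2.40 ± 0.12, SE, limma adjusted p = 6.59e-11). NFKB2, which encodes p100 and p52, went from 461 and 496 to 1497 and 1458 (log2 fold change 1.62 ± 0.08, SE, limma adjusted p = 3.16e-11). The 0 h and 16 h libraries of both genes were apart, and their replicates lay close together. NFKB1, at 759.9 and 887 and then 1516 and 1501, passed the adjusted p but not the fold (log2 fold change 0.88), RELA had 0.42 and REL 0.12. Of 10 IκB proteins and inhibitors of NF-κB tested, 5 were called higher, with a list median of 1.02. TNFAIP3, the deubiquitinase A20, went from 44.2 and 16.4 to 498 and 496 (log2 fold change 4.15 ± 0.29, SE, limma adjusted p = 5.2e-09). NFKBIA, which encodes IκBα, went from 226 and 195 to 1097 and 1053 (log2 fold change 2.35 ± 0.10, SE, limma adjusted p = 1.88e-11). Their 16 h replicates lay close together, and the 2 values of TNFAIP3 at 0 h differed more than those at 16 h. NFKBIE had a log2 fold change of 2.0, BCL3 of 1.42 and TNIP1 of 1.26. Among 17 genes of the TNF receptor complex and its survival arm, 3 were called higher. BIRC3, the ubiquitin ligase cIAP2, went from 188 and 176 to 2591 and 2541 (log2 fold change 3.81 ± 0.20, SE, limma adjusted p = 1.02e-10). TRAF1, an adaptor of TNF receptors, went from 34.9 and 27.4 to 630.5 and 686 (log2 fold change 4.37 ± 0.15, SE, limma adjusted p = 2.73e-12). BIRC2, which encodes cIAP1, had a log2 fold change of 1.20, and the other 14 were not called, with a list median of 0.25.

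Windows of 300 bases around the annotated start, from 250 bases before it to 50 after it (RefSeq, GRCh38.p14), were matched to 11528 of the tested genes by symbol or gene ID, 201 of them called higher and 497 called lower. An NF-κB-type sequence, GGG followed by 3 bases of any kind and TTCC, searched on both strands, was in 35 of the 201 windows of genes called higher (17.4%), in 22 of the 497 of genes called lower (4.43%) and in 870 of all 11528 (7.55%). A second spelling, GGG followed by 2 bases of any kind, TT, 1 further base and CC, which overlaps the first at many sites, was in 18.4%, 5.43% and 6.70%. Windows of genes called higher had a slightly lower GC content (median 63.3% against 65.3% for all), and within the low, middle and high ranges of GC content, which held equal numbers of windows, the first spelling was in 18.6%, 22.2% and 11.5% of them, against 7.16%, 8.25% and 7.23% of all windows. The AP-1-type letters TGANTCA, which read alike on both strands, were in 10.4% of the windows of genes called higher, 4.23% of those called lower and 4.42% of all. The interferon-type letters, GAAA on both sides of 2 bases of any kind, were in 3.48%, 2.62% and 2.63%. A match describes the letters of a window and is not a measured binding site, and these shares were not tested. The following 50-base stretches, printed in the direction of the gene, each show 1 NF-κB-type match in capitals for 8 genes whose values are given here. The match in capitals begins between 67 and 199 bases before the start. The stretches of TNFRSF9, TNFAIP3 and CXCL1 hold a further match that is not marked, beginning 73, 55 and 78 bases before the start. For TNFRSF9 and CXCL1 it overlaps the marked match.
IL32 (chr16:3065284-3065333, plus strand): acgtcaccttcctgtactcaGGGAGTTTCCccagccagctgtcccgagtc
TNFRSF9 (chr1:7940884-7940933, minus strand): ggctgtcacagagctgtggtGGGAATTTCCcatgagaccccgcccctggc
LTB (chr6:31582482-31582531, minus strand): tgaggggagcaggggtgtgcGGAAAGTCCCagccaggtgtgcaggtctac
TNFAIP3 (chr6:137867172-137867221, plus strand): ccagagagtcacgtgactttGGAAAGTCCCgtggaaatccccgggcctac
BIRC3 (chr11:102317265-102317314, plus strand): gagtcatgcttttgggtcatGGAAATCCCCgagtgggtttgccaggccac
SGPP2 (chr2:222423829-222423878, plus strand): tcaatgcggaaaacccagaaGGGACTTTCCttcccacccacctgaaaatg
CXCL1 (chr4:73869294-73869343, plus strand): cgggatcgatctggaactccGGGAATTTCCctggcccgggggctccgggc
NFKBIA (chr14:35404801-35404850, minus strand): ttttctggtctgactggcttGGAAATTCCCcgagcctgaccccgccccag
The windows of SERPINB2, CXCL8, IL23A and MT2A are shown for the AP-1-type letters in the same manner, beginning 102, 137, 77 and 104 bases before the start.
SERPINB2 (chr18:63887583-63887629, plus strand): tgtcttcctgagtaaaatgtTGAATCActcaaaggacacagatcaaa
CXCL8 (chr4:73740412-73740458, plus strand): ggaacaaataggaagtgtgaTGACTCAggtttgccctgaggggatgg
IL23A (chr12:56338787-56338833, plus strand): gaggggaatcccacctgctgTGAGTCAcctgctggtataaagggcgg
MT2A (chr16:56608460-56608506, plus strand): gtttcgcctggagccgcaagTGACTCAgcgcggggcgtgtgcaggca

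Chemokine and cytokine genes were tested where they reached the mean of 2.5 normalized reads, which some did only through the induced libraries: CCL5, CCL7, CCL11 and CCL20 were at 0 in all 0 h libraries. The counts therefore cover 8 of 15 CXC and CX3C chemokines, 7 of 21 CC chemokines and 12 of 22 cytokines and are no summary of the families. Of the 8 CXC and CX3C chemokines tested, 5 were called higher and 1 lower. CXCL8, which attracts neutrophils, went from 0 and 4.11 to 67.1 and 65.4 normalized reads (log2 fold change 4.89 ± 0.62, SE, limma adjusted p = 9.06e-06). It was 49.2-fold higher (counting interval 16.5 to 241). CXCL1, CXCL2, CXCL3 and CXCL5, which share that receptor class and are similar in sequence, so that reads could be misassigned among them, were low: CXCL1 went from 6.03 and 1.37 to 25.1 and 21.0. The CXCL1 call was lost without replicate B at 0 h (log2 fold change 1.77 in place of 2.55), and each of the other 3 also lost its call without at least 1 library. CXCL14, a chemokine of resting epithelia, was the one called lower, from 5.36 and 4.11 to 0 and 0, with the call lost without replicate A at 0 h (log2 fold change -2.35 in place of -2.51). Of 7 CC chemokines tested, CCL2, CCL5 and CCL7 were called higher. CCL7 was at 0 and 0 in both 0 h libraries and at 10.9 and 3.70 at 16 h, and CCL5 at 0 and 0 and then 10.1 and 6.17, so both stayed within a few reads of the floor. Of the 12 cytokines tested, 6 were called higher and 1 lower. IL23A, a subunit of interleukin-23, went from 29.5 and 26.1 to 210.4 and 191 (log2 fold change 2.81 ± 0.19, SE, limma adjusted p = 3.97e-09). EBI3, a subunit of interleukins 27 and 35, went from 0 and 2.74 to 23.5 and 21.0, and CSF1, the macrophage growth factor, from 22.8 and 21.9 to 83.8 and 85.2. IL16, a cytokine that attracts CD4-bearing cells, fell from 89.8 and 76.8 to 16.8 and 11.1 (log2 fold change -2.52 ± 0.24, SE, limma adjusted p = 2.78e-07). No group of these 4 genes overlapped with its counterpart.

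The TNF superfamily moved in both directions. Of 10 ligands tested, 4 were called higher and 1 lower, with a median of 0.14. LTB, a subunit of lymphotoxin, went from 7.37 and 2.74 to 151 and 92.6 normalized reads (log2 fold change 4.41 ± 0.52, SE, limma adjusted p = 4.23e-06), and TNF itself from 1.34 and 1.37 to 41.9 and 29.6 (log2 fold change 3.94 ± 0.45, SE, limma adjusted p = 2.63e-06). Both genes lie in a region that the table lists in 8 copies on alternate sequences, so that their counts are uncertain. TNFSF10, the death ligand TRAIL, fell from 67.0 and 67.2 to 20.1 and 18.5 (log2 fold change -1.75 ± 0.26, SE, limma adjusted p = 6.44e-05). Its replicates were close together at both times. Of 16 receptors tested, TNFRSF9 and TNFRSF6B were called higher and TNFRSF19 lower (log2 fold change -1.08). TNFRSF6B, a soluble decoy receptor, went from 53.6 and 45.2 to 242 and 222 (log2 fold change 2.21 ± 0.12, SE, limma adjusted p = 1.87e-10). TNFRSF1A, which encodes TNF receptor 1, had a log2 fold change of -0.08 and TNFRSF1B one of 0.25 (limma adjusted p = 0.566 and 0.0648).

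Receptors and surface molecules of immune signalling were among the genes called higher. Of 23 JAK-STAT components and cytokine receptors, 6 were called higher and 1 lower, against 1.86% and 4.5% of all tested genes. The count includes IL7R, which was at 0 in all 0 h libraries and reached the level required for testing only through the induced libraries. IL7R, the interleukin-7 receptor chain, rose from 0 and 0 to 31.0 and 18.5, a level at least 8.09-fold higher. IL18R1 went from 2.68 and 2.74 to 56.2 and 29.6, and IL2RG, the common γ chain, from 8.04 and 5.48 to 31.9 and 28.4. All 3 were low at 0 h and separate from it at 16 h. ICAM1, an adhesion molecule for leukocytes, went from 455 and 307 to 3101 and 2487 (log2 fold change 2.89 ± 0.14, SE, limma adjusted p = 6.78e-11). CD44, a hyaluronan receptor, went from 2859 and 2629.9 to 5978 and 5756 (log2 fold change 1.10 ± 0.07, SE, limma adjusted p = 2.35e-09). In the antigen presentation list 5 of 22 were called higher, with a median of 0.61. They were UBD (0 and 0 and then 19.3 and 16.0, the ubiquitin-like protein FAT10), CIITA, CD74, HLA-B and TAPBP. HLA-B, a class I heavy chain whose reads can be shared with other class I genes, went from 641 and 513 to 1532 and 1342. CIITA lost its call without replicate B at 0 h or replicate A at 16 h (log2 fold change 1.26 or 1.77 in place of 2.22), and TAPBP without replicate A at 16 h (0.96 in place of 1.03). The 32 interferon-stimulated genes tested had a median of 0.02. At an unadjusted p under 0.05 (limma), 7 were higher and 7 lower, against 14% and 23.5% of all tested genes. In control cells 7 were called higher and 3 lower. The test of the difference from control cells, described below, passed for 8, all with a lower response in depleted cells. Of all tested genes 2.86% passed it. In depleted cells 1 of the 32 was called higher and 1 lower. The one called higher was IRF1, from 464 and 543 to 1049.6 and 1046, a transcription factor that TNF-α also induces, and its call was lost without replicate A at 0 h (0.95 in place of 1.06).

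Proteases and acute-phase proteins were a further group. Of 17 matrix proteases, urokinase components and inhibitors, 7 were called higher and 1 lower, with a median of 0.56. PLAU, the urokinase protease, went from 61.0 and 59.0 to 1172 and 1196 normalized reads (log2 fold change 4.28 ± 0.18, SE, limma adjusted p = 6.72e-12), and PLAUR, its receptor, from 443 and 388 to 1065 and 1116 (log2 fold change 1.39 ± 0.12, SE, limma adjusted p = 7.02e-08). With SERPINB2, the protease, its receptor and an inhibitor were all called higher. CTSS, the lysosomal protease cathepsin S, went from 35.5 and 28.8 to 498 and 316 (log2 fold change 3.59 ± 0.34, SE, limma adjusted p = 2.5e-07). MMP11, a stromelysin, was the one called lower, from 18.1 and 15.1 to 0 and 0 in both 16 h libraries, a level at least 5.33-fold lower. SAA1, an acute-phase apolipoprotein whose reads can be shared with SAA2, went from 259 and 214 to 783 and 824 (log2 fold change 1.77 ± 0.14, SE, limma adjusted p = 1.84e-08). PI3, the elastase inhibitor elafin, went from 2.01 and 2.74 to 36.0 and 42.0 and was 17.1-fold higher (counting interval 7.01 to 54.1). NOS2, the inducible nitric oxide synthase, went the other way, from 121 and 103 to 30.2 and 34.6 (log2 fold change -1.76 ± 0.22, SE, limma adjusted p = 9.9e-06). SAA1, PI3 and NOS2 did not overlap between times.

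Of 17 AP-1 and immediate-early factors, 3 were called higher and 1 lower. FOSL1 went from 1232 and 1238 to 3516 and 3909.7 normalized reads (log2 fold change 1.59 ± 0.08, SE, limma adjusted p = 7.04e-11). JUN, at 574 and 527 and then 1278 and 1238, and JUNB, at 381 and 359 and then 804 and 875, had log2 fold changes of 1.19 and 1.18. FOS fell from 753 and 742 to 248 and 253 (log2 fold change -1.57 ± 0.10, SE, limma adjusted p = 2.35e-09), so that 2 members of the FOS family moved in opposite directions. Of 15 genes of MAPK feedback, 3 were called higher, the phosphatases DUSP10 (2.26), DUSP8 (1.81) and DUSP5 (1.22). Among the 23 genes of matrix and integrins, LAMB3, a laminin chain, and ITGA2, an integrin chain, had log2 fold changes of 1.09 and 1.26. By level per kilobase of exon at 16 h, the 5 highest of the genes called higher were MT2A, SQSTM1, MT1E, SDC4 and FOSL1. MT2A, a metallothionein that binds zinc and copper and is similar in sequence to MT1E, went from 1663 and 1832 to 4717 and 5647 (log2 fold change 1.56 ± 0.08, SE, limma adjusted p = 1.13e-10). SQSTM1, the autophagy receptor p62, went from 6447 and 6439 to 14464 and 14393 (log2 fold change 1.16 ± 0.07, SE, limma adjusted p = 8.2e-10), and SDC4, a heparan sulfate proteoglycan, from 2437 and 2134 to 7328 and 6731 (log2 fold change 1.62 ± 0.11, SE, limma adjusted p = 2.54e-09).

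METTL7A, a methyltransferase-like protein of lipid droplets, had the largest fall, from 25.5 and 27.4 normalized reads to 0.84 and 0 (log2 fold change -4.34 ± 0.70, SE, limma adjusted p = 0.000134). MYH7B, a myosin heavy chain, had the largest fall of a well-expressed gene, from 499 and 326 to 22.6 and 25.9 (log2 fold change -4.0 ± 0.15, SE, limma adjusted p = 2.73e-12). METTL7A had 1 read over both libraries at 16 h and was 52.3-fold lower (counting interval 9.02 to 2101), whereas MYH7B kept a measurable level. TSPAN2, a tetraspanin, went from 30.8 and 38.4 to 1.68 and 2.47. LRP2, the endocytic receptor megalin, went from 34.2 and 27.4 to 1.68 and 2.47. KLK7, a kallikrein protease, went from 29.5 and 38.4 to 1.68 and 6.17. Their log2 fold changes were -3.54, -3.37 and -2.98, and the limma adjusted p were 4.77e-07, 1.84e-08 and 4.21e-05. INHBE (-3.38), SYT12 (-2.89), LGR6 (-2.84), HYAL1 (-2.83) and the pseudogene ZDHHC8P1 (-3.05) followed. PDGFRB, the PDGF receptor β usually found on mesenchymal cells, went from 69.7 and 69.9 to 7.55 and 8.64 (log2 fold change -2.96 ± 0.41, SE, limma adjusted p = 2.63e-05), while COL1A1, another mesenchymal marker, stood at 88.5 and 106 and then 48.6 and 50.6.

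Of the genes of cholesterol synthesis and uptake, all 24 had a log2 fold change below 0, 8 were called lower, and the list median was -0.90 against -0.06 for all genes. None of the 24 was called higher by limma, edgeR or DESeq2, and at an unadjusted p under 0.05 (limma) 23 were lower and 0 higher, against 23.5% lower and 14% higher of all tested genes. INSIG1, which retains the sterol-sensing complex in the endoplasmic reticulum, went from 683 and 575 to 226 and 142 normalized reads (log2 fold change -1.80 ± 0.15, SE, limma adjusted p = 6.88e-08). IDI1, an isomerase of the isoprenoid pathway, went from 422 and 394 to 171 and 165 (log2 fold change -1.27 ± 0.10, SE, limma adjusted p = 4.11e-08). The 2 times were apart for both genes. TM7SF2 (-1.52), STARD4 (-1.20) and MVK (-1.17) were also called lower. The calls of MSMO1 and HSD17B7 were lost without replicate A at 0 h, where MSMO1 had -0.93 in place of -1.10 and HSD17B7 -0.61 in place of -1.12, and also without replicate B at 16 h for MSMO1 (-0.80) and replicate A at 16 h for HSD17B7 (-0.88). SREBF2, the master factor of the pathway, had -0.94, under 2-fold. Of 12 genes of fatty acid synthesis, 3 were called lower, with a median of -0.43. ACSS2, which makes acetyl-CoA from acetate, went from 616 and 548 to 132 and 146 (log2 fold change -2.06 ± 0.09, SE, limma adjusted p = 2.33e-11), and SCD, the desaturase of stearoyl-CoA, from 7534 and 6366 to 2811 and 2262 (log2 fold change -1.46 ± 0.11, SE, limma adjusted p = 2.37e-08). The SREBF1 call (-1.02) was lost without replicate A at 0 h (-0.93), without replicate B at 16 h (-0.82) and after median-ratio rescaling (-0.96). FASN, at 8080.3 and 7658 and then 6372 and 6435, had -0.30. MLXIPL, the carbohydrate-responsive factor ChREBP, went from 67.0 and 49.4 to 10.1 and 4.94 (log2 fold change -2.85 ± 0.27, SE, limma adjusted p = 3.18e-07).

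**Figure D3:**
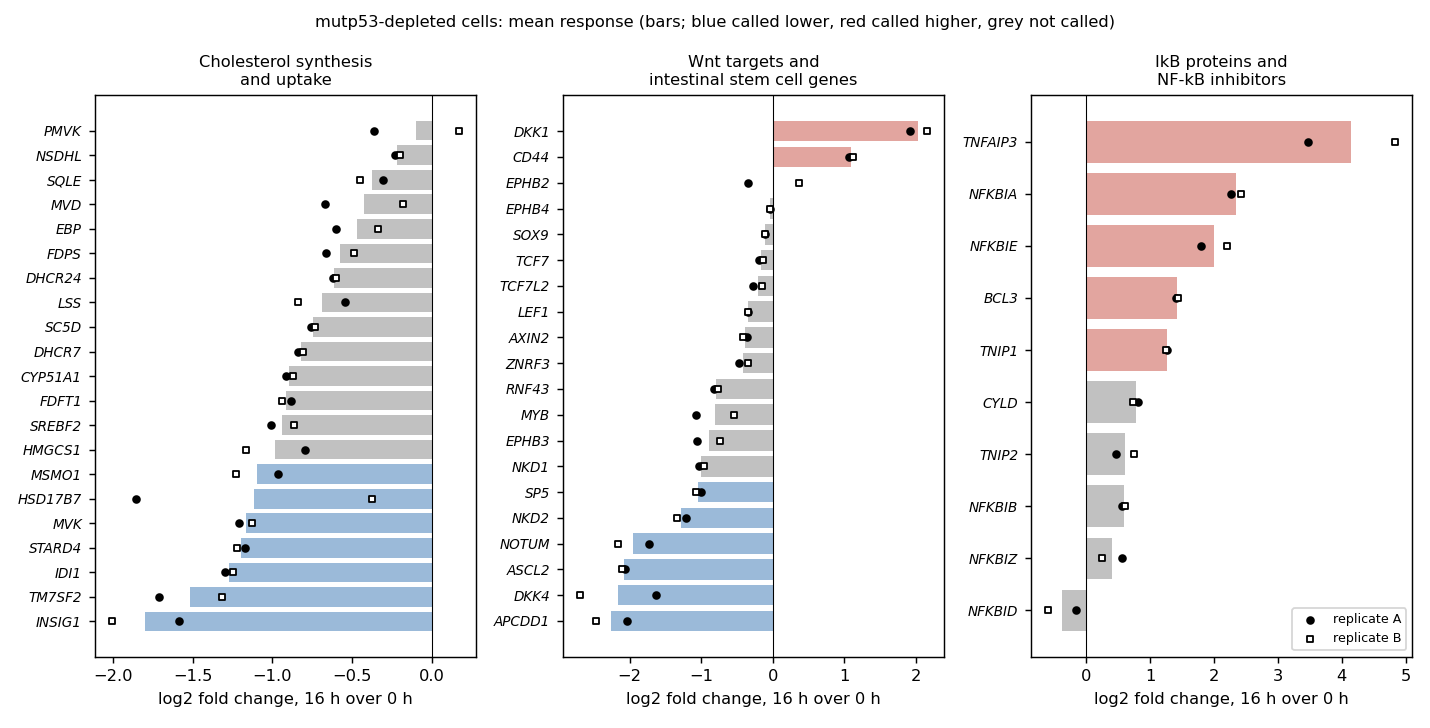
Log2 fold change of 16 h over 0 h in mutp53-depleted cells for the genes shown of 3 lists, with bars for the mean response (blue called lower, red called higher, grey not called), filled circles for replicate A and open squares for replicate B. Circles and squares pair the libraries by column letter only. All 21 cholesterol genes shown have a mean below 0, and 9 of 10 IκB proteins and NF-κB inhibitors have a mean above 0.

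Of 20 Wnt targets and intestinal stem cell genes, 6 were called lower, 2 higher and 12 were not called, with a median of -0.60. APCDD1, a Wnt inhibitor and Wnt target with the highest level per kilobase at 0 h of all genes called lower, went from 5426 and 4260.2 to 1318 and 765 normalized reads (log2 fold change -2.26 ± 0.16, SE, limma adjusted p = 8.82e-09). ASCL2, a transcription factor of intestinal stem cells, went from 582 and 449.7 to 138 and 104 (log2 fold change -2.09 ± 0.12, SE, limma adjusted p = 6.71e-10). NOTUM, a secreted enzyme that inactivates Wnt ligands, went from 413 and 285 to 123 and 62.9 (log2 fold change -1.95 ± 0.21, SE, limma adjusted p = 1.42e-06). The replicates of APCDD1 and NOTUM differed from each other within each time by less than the times did. NKD2, an inhibitor of Wnt signalling, had -1.28, and the calls of SP5 (-1.04) and DKK4 (-2.16) were lost under at least 1 alternative. DKK1, a secreted Wnt inhibitor, went the other way, from 139 and 115 to 529.9 and 518 (log2 fold change 2.04 ± 0.17, SE, limma adjusted p = 3.86e-08), and CD44 was the other gene of the list called higher. AXIN2, a widely used Wnt readout, stood at 9859.5 and 9489.8 and then 7668 and 7109.7 (log2 fold change -0.39, under 2-fold).

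Of 20 junction and epithelial genes, 4 were called lower and edgeR called 1 higher, with a median of -0.23. CDH1, which encodes E-cadherin, went from 275 and 265 to 58.7 and 61.7 normalized reads (log2 fold change -2.15 ± 0.13, SE, limma adjusted p = 1.35e-09). ESRP1, an epithelial splicing regulator, went from 332 and 372 to 112 and 127 (log2 fold change -1.55 ± 0.12, SE, limma adjusted p = 1.44e-08), and JUP, the junction protein plakoglobin, from 1895 and 1844 to 882 and 818 (log2 fold change -1.14 ± 0.07, SE, limma adjusted p = 2.31e-09). The 0 h and 16 h libraries of all 3 were apart. DSC2 lost its call without replicate B at 16 h (-0.98 in place of -1.23). EPCAM had a log2 fold change of 0.04, KRT8 of -0.44 and KRT18 of -0.37, and VIM, a mesenchymal filament protein already high in these cells, one of 0.66, all under 2-fold. Of 9 intestinal differentiation genes tested, 3 were called lower by limma, whereas edgeR and DESeq2 each called 2 lower and edgeR called 1 higher. Among the 3 were HNF4A, a transcription factor of the intestinal epithelium, from 135 and 128 to 45.3 and 35.8 (log2 fold change -1.68 ± 0.14, SE, limma adjusted p = 5.46e-08), and ALPL, a phosphatase, from 52.3 and 57.6 to 6.71 and 9.87. ALPL stood at only 5.81 and 7.57 at 0 h in control cells. Of 20 TGF-β superfamily genes, 4 were called lower and 2 higher, the latter being BMP2 and INHBA. BAMBI, a decoy receptor of the family, went from 1140.5 and 982 to 389.8 and 322 (log2 fold change -1.58 ± 0.10, SE, limma adjusted p = 8.56e-10). ID2, an inhibitor of basic helix-loop-helix factors, went from 1750.3 and 1614 to 601 and 527 (log2 fold change -1.58 ± 0.10, SE, limma adjusted p = 8.56e-10), and CRABP2, a carrier of retinoic acid, from 1518 and 1539.8 to 584 and 601 (log2 fold change -1.37 ± 0.08, SE, limma adjusted p = 4.61e-10). MSX1, a homeobox factor at 3614 and 3549 and then 1723 and 1768, was at the edge of the 2-fold limit and lost its call after rescaling (-0.97 in place of -1.04).

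**Figure D4:**
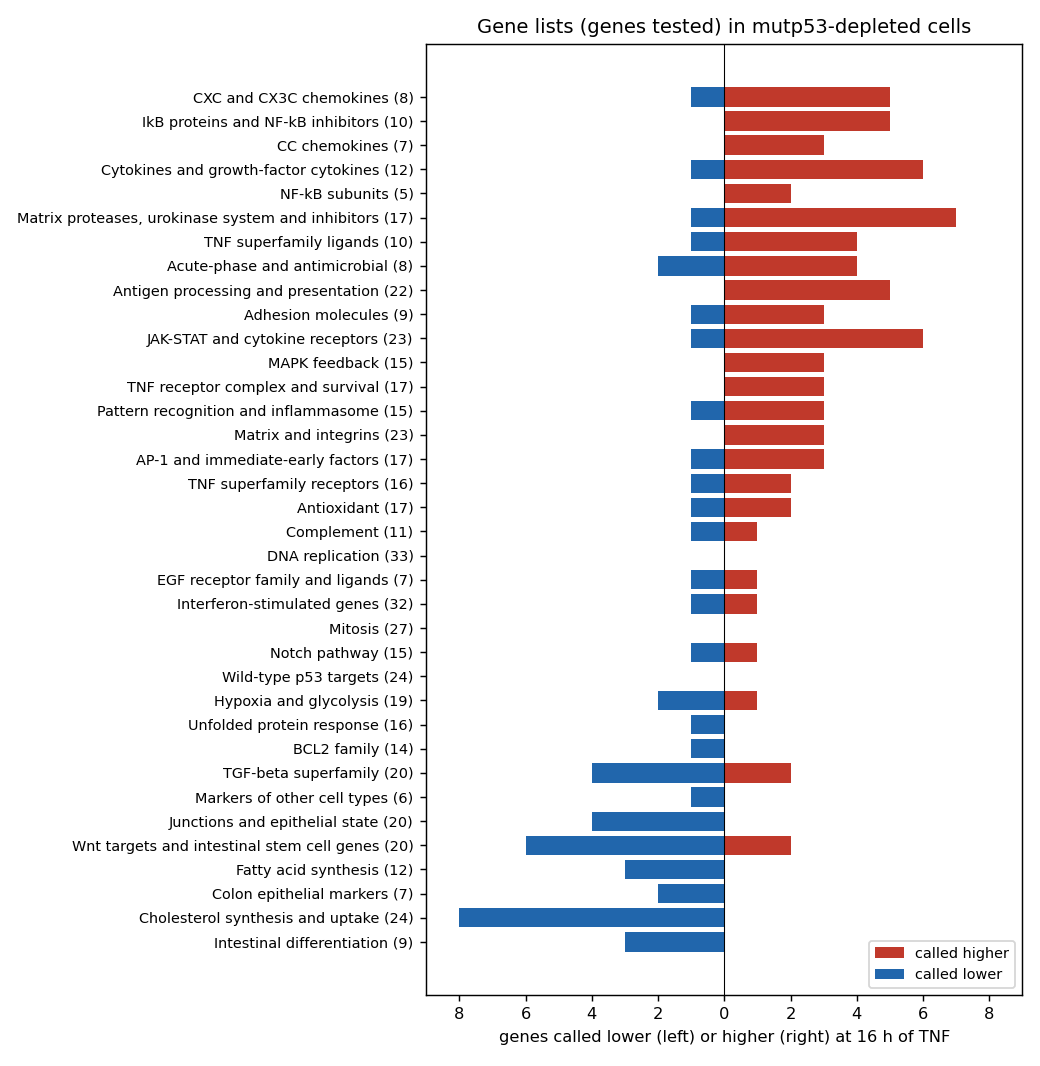
Number of genes called lower (bars to the left) or higher (bars to the right) after 16 h of TNF-α in mutp53-depleted cells, for each of 36 gene lists, with the number of genes tested in parentheses. Chemokine, cytokine and NF-κB lists hold calls mostly on the right, the cholesterol list holds 8 calls on the left and none on the right, and DNA replication, mitosis and wild-type p53 target lists hold none. Some members, such as CCL5, CCL7 and IL7R, reached the level required for testing only through the induced libraries, which favours bars on the right.

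Several programmes held no or few calls. None of 33 DNA replication genes and none of 27 mitosis genes was called by limma, edgeR or DESeq2. At an unadjusted p under 0.05 (limma), 5 of the 33 were higher and 9 lower, and 1 of the 27 was higher and 17 lower, to be read against the 14% and 23.5% of all tested genes. In the mitosis list 24 of the 27 had a fold change below 0, with a list median of -0.23. PCNA stood at 2533 and 2618 and then 2381 and 2315 normalized reads and MKI67 at 9668 and 10118 and then 8679 and 8577, with log2 fold changes of -0.13 and -0.20. None of 24 wild-type p53 targets was called by limma, PLK3 (0.99) was called higher by both edgeR and DESeq2, and at an unadjusted p under 0.05 (limma) 9 were higher and 8 lower, with a list median of 0.09. CDKN1A, the cell cycle inhibitor p21, went from 799 and 749 to 875 and 968 (log2 fold change 0.25, limma adjusted p = 0.0277), and MDM2 had 0.19. Among 14 BCL2 family genes, only BMF, a proapoptotic member, was called, from 83.8 and 78.2 to 24.3 and 14.8 (log2 fold change -2.03 ± 0.26, SE, limma adjusted p = 1.04e-05). By annotation, 258 of 13226 protein-coding genes were called higher and 592 lower. Of 1097 noncoding RNA genes 13 were called higher and 62 lower, and of 368 pseudogenes 12 were called lower. These counts are to be read against the 1.86% of all tested genes called higher and the 4.5% called lower, and differences between the classes were not tested. In 285 windows of 50 neighbouring genes along the chromosomes, the window median lay between -0.34 and 0.13, and in no window was it 0.5 or more away from 0.

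The response was set beside that of control cells, which came from other libraries. Of the 275 genes called higher in depleted cells, 262 (95.3%) had a fold change above 0 in control cells, against 44% of all tested genes, 213 (77.5%) were at least 2-fold higher there, against 3.8%, and 205 (74.5%) were called there, against 2.97%. Those 205 were 46.6% of the 440 genes called higher in control cells. Of the 666 genes called lower, 638 (95.8%) were below 0 in control cells, against 55.9% of all, 373 (56.0%) were at least 2-fold lower, against 6.36%, and 340 (51.1%) were called lower, against 4.27%, which is 53.8% of the 632 called lower in control cells. None of the 275 was called lower in control cells, and 1 of the 666, TNFSF10, was called higher there. The median log2 fold change of the 275 was 1.67 in depleted and 1.89 in control cells, and that of the 666 was -1.48 and -1.07. These lists were chosen on the depleted libraries, which favours the depleted value. Over all 14800 genes the 2 responses correlated at r = 0.69 (Pearson) and rho = 0.62 (Spearman), a description across genes from one fit.

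The difference between the 2 responses was tested as an interaction (limma, adjusted p under 0.05), which contains the depleted contrast that chose the genes. It passed for 424 genes (2.86% of those tested), among them 70 of the 275 called higher and 49 of the 666 called lower. The 70 became 46 without replicate B of depleted cells at 16 h, and the 49 became 26 without replicate A of depleted cells at 0 h, 29 without replicate B of control cells at 0 h and 27 with DESeq2, which called 424 genes lower in place of 666. Of the 70, 53 (75.7%) rose less than in control cells and 17 more, a share close to the 77.1% with a lower response among all genes that passed (2.21% of tested genes lower and 0.655% higher). TNFAIP2, a TNF-inducible protein, rose by 1.36 in depleted cells (1049 and 1039 to 2738 and 2614 normalized reads) and by 4.01 in control cells (441 and 445 to 7946 and 6458), on the log2 scale (interaction adjusted p = 2.14e-10, limma). SGPP2, a sphingosine phosphatase, rose by 2.59 and 5.92 (interaction adjusted p = 1.45e-05, limma). LTB, which had 4.35 and 0 normalized reads at 0 h in control cells, rose by 4.41 and 10.12 (interaction adjusted p = 0.00017, limma). All 3 therefore rose in both and less in depleted cells. A smaller rise was not always a lower level: BIRC3, with 7.98 and 16.7 normalized reads at 0 h and 1371 and 1169 at 16 h in control cells, rose less in depleted cells but stood higher there at both times. SERPINB2 was the widest exception, with 6.49 in depleted and 1.30 in control cells (interaction adjusted p = 0.000178, limma), where it went from 5.08 and 3.03 to 21.3 and 5.69. MT2A (1.56 and 0.96) also rose more in depleted cells. For MMP9 the interaction did not pass (7.0 and 8.01, adjusted p = 0.551, limma), with a standard error of 0.65 on the difference of -1.01. CPA4 had 3.50 and 5.35 (adjusted p = 0.308, limma) and CYP24A1 1.12 and 2.13 (adjusted p = 0.156, limma), and the CYP24A1 call in depleted cells was lost without replicate B at 0 h (0.99) or replicate A at 16 h (0.74).

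Of the 49 genes called lower for which the interaction passed, 48 had a lower response than in control cells. Their choice on a fall in depleted cells favours this, and 77.1% of all genes that passed had a lower response. The exception was BDNF, a neurotrophin, with -1.80 in depleted and -2.65 in control cells. SESN3, a stress-response sestrin, went from 602 and 531 to 81.3 and 88.9 normalized reads in depleted cells and from 689 and 671 to 464 and 449.6 in control cells, with log2 fold changes of -2.72 and -0.57 (interaction adjusted p = 1.16e-07, limma). ELF3, an epithelial ETS factor, had -1.26 and 0.79 (interaction adjusted p = 2.8e-05, limma). TNFSF10 had -1.75 and 1.01 (interaction adjusted p = 0.000252, limma) and was thus called lower in depleted and higher in control cells, where it went from 22.5 and 30.3 to 50.3 and 56.9. DHRS3, which reduces retinal, had -1.71 and -0.18, and JUP -1.14 and -0.27. For the cholesterol list the medians were -0.90 in depleted and -1.10 in control cells, where 15 of 24 were called lower against 8 in depleted cells. INSIG1 had -1.80 and -2.41 (interaction adjusted p = 0.168, limma), and the interaction passed for 2 of the 24, CYP51A1 (-0.89 and -1.44) and DHCR7 (-0.82 and -1.38), both with the smaller fall in depleted cells. CDH1 fell in both, by 2.15 and 2.51 on the log2 scale.

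**Figure D5:**
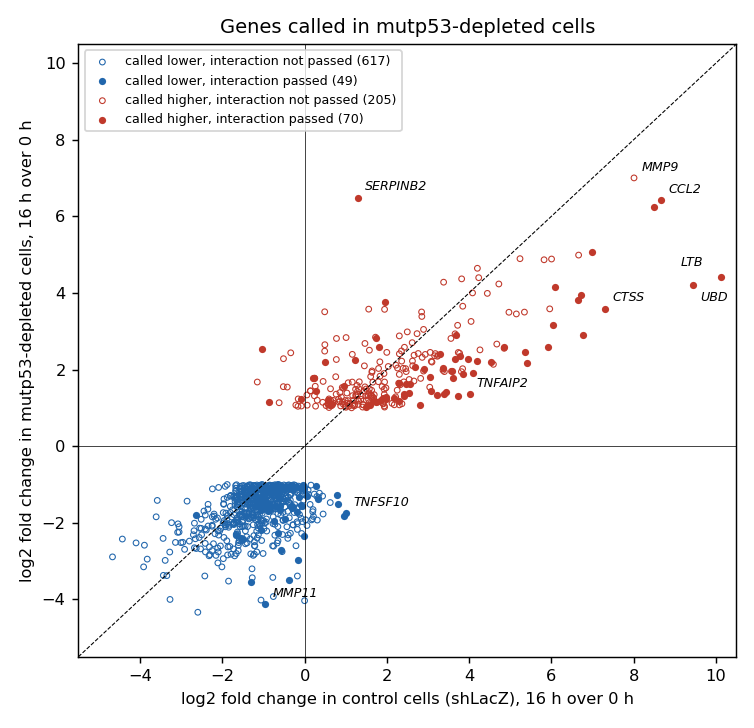
Log2 fold change of 16 h over 0 h in control cells (x axis) and in mutp53-depleted cells (y axis) for the 941 genes called in depleted cells, with filled points where the interaction passed (49 called lower, 70 called higher) and the dashed line where both responses are equal. SERPINB2 lies above the line, and LTB, UBD, CTSS and CCL2 lie below it.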

How the data were processed

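The mRNA-seq libraries came from 4 groups of SW480 cells with 2 biological replicates each, of 17 samples in the series. Per the paper's methods, strand-specific libraries made with dUTP were sequenced from 1 end, reads were mapped with STAR and genes were compared with edgeR. The authors deposited signal values, which are reads counted with HOMER on the exons of RefSeq genes and multiplied by 1 factor per library, without a factor for composition. Dividing by the value of 1 read (0.67 to 1.51 normalized reads) gave whole reads for 100% of the values within 0.01. The table's header and coordinates give hg19, whereas the methods name hg38, and no coordinate of the table is printed. Columns with fold changes and p-values of 4 comparisons were deposited by the authors and not used. The ChIP-seq and GRO-seq data were not analysed here.

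Values were compared as log2(value + 1) with limma 3.58.1 (lmFit, contrasts.fit and eBayes with trend, R 4.3.3) in a model of 4 group means over 8 libraries, for the 14800 genes whose mean reached 2.5. The members and gene lists were chosen with earlier results of these data known. Named genes are the 15 largest changes in each direction with at least 20 normalized reads in the higher group, the 5 highest per kilobase and the 5 with the smallest interaction p in each direction, up to 8 members of each list, and genes that the paper names. AXIN2, BDNF, CYP51A1, DHCR7, PLK3 and SREBF2, and the families in the closing section, were added after their values were seen. Some genes that this rule names are not reported here. Folds against a group at 0 reads are bounds computed at 3 reads per library. Folds given with a counting interval are ratios of pooled reads, and the interval is an exact conditional binomial one. Both cover counting error only. PCR reads carry no molecular identifiers. With 2 libraries per group, p-values rest on the spread shared by all groups.

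Alternatives were median-ratio rescaling, pseudocounts of 0.1 and 5, no filter, a minimum mean of 10, the 4 depleted libraries alone, a replicate block, edgeR 4.0.16 (quasi-likelihood) and DESeq2 1.42.0 on recovered reads, removal of a gene-length trend, and each of the 8 libraries left out in turn. The procedure was tested on simulated data for the TNF-α comparison in mutp53-depleted cells, with 200 changed genes among 14800. Of these 200, 197 (98.5%) were called, and there were 0 false calls. The share was not split by level or by size of change. It therefore cannot be read as the share for genes near the floor or close to the 2-fold limit. Python 3.11.15 with pandas 2.3.3 and matplotlib 3.10.9 made the tables and figures.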

Additional observations from a re-analysis of the deposited data

Results flagged for a closer look

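For genes named by the rule and called in depleted cells, the TNF-α response of mutp53-depleted cells differed from that of control cells by the interaction test (limma, Benjamini-Hochberg adjusted p under 0.05) for the 48 listed here. Values are the log2 response in depleted cells minus that in control cells. The interaction contains the contrast on which these genes were called, and 2.86% of all tested genes passed it.

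Of the genes called higher in depleted cells, 30 rose less there than in control cells. Among these 30, the 0 h mean was above that of control cells for 25 and equal (0 in all libraries) for 2. Of all tested genes, 51.8% were above at 0 h. The 16 h mean was above control for 6 of the 30 (BIRC3, SAA1, SAA2, BIRC2, SQSTM1 and IRF1). Choosing genes by a lower response itself favours a high 0 h and a low 16 h mean in depleted cells. These counts therefore describe the 30 and are no test of their levels. The largest differences were those of LTB (-5.71), UBD (-5.22), CCL7 (-3.85), CTSS (-3.71), SGPP2 (-3.34), BIRC3 (-2.84), TNF (-2.77), TNFAIP2 (-2.66), IL32 (-2.26) and CCL2 (-2.24). They were followed by PLAT (-2.05), BCL3 (-2.01), CSF1 (-1.98), TNFRSF6B (-1.98), TNFAIP3 (-1.95), C3 (-1.91), SAA1 (-1.85), SAA2 (-1.62), NFKBIA (-1.43) and CD74 (-1.23). The smallest were those of NFKB2 (-0.93), NFKBIE (-0.89), RELB (-0.89), SDC4 (-0.84), ICAM1 (-0.80), BIRC2 (-0.66), TNIP1 (-0.64), SQSTM1 (-0.58), IRF1 (-0.53) and TAPBP (-0.46). Adjusted p ranged from 2.14e-10 to 0.0397 (limma). They include NF-κB subunits, IκB proteins, chemokines and cytokines.

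Of the genes called higher, 4 rose more in depleted cells, namely CD44 (0.42), MT1E (0.44), MT2A (0.61) and SERPINB2 (5.19), with adjusted p from 0.000178 to 0.0293 (limma). They encode a hyaluronan receptor, a pair of metallothioneins and a urokinase inhibitor.

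Of the genes called lower in depleted cells, 14 had a lower response there than in control cells, namely MMP11 (-3.17), PDGFRB (-2.81), TNFSF10 (-2.75), IL12RB2 (-2.33), TSPAN2 (-2.24), SESN3 (-2.15), ELF3 (-2.06), TGFBR3 (-1.72), APCDD1 (-1.61), DHRS3 (-1.52), NOTUM (-1.21), JUP (-0.87), ERBB3 (-0.85) and HNF4A (-0.79), with adjusted p from 1.16e-07 to 0.0362 (limma). TNFSF10, IL12RB2, ELF3 and TGFBR3 had a response above 0 in control cells. Groups of 2 libraries are too small to look for outliers.

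The interaction also passed for 11 genes described in the text that were named after their values were seen or were not called. They were NFKB1 (-0.46), REL (-0.83), CYP51A1 (0.55), DHCR7 (0.56), BDNF (0.85), KCNJ5 (-0.67), SCNN1A (-0.87), SEMA7A (1.09), KRT6A (1.31), KRT7 (-1.74) and KRT75 (3.58).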

How the results depend on the processing

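The counts were recomputed under 10 other settings and with each of the 8 libraries left out. Genes called higher numbered 275 and stayed between 246 and 326 under the 10 settings, and genes called lower numbered 666 and stayed between 561 and 677 except with DESeq2, which called 424 (cause not tested). DESeq2 also lowered the genes called lower that passed the interaction from 49 to 27 (cause not tested). All 275 were among the 308 called higher after median-ratio rescaling, as were 591 of the 666 among those called lower, and edgeR called 268 of the 275 and 577 of the 666. The median of all genes was -0.06 and became 0.00 after rescaling. Leaving out 1 library gave 220 to 280 genes higher and 499 to 730 lower. The interaction among genes called higher passed for 46 to 59 of them (70 with all libraries), with 46 without replicate B of depleted cells at 16 h, and among genes called lower for 26 to 62 (49 with all), with 26 without replicate A of depleted cells at 0 h and 29 without replicate B of control cells at 0 h; fewer libraries enter these fits. The share of calls that were higher was 29.2% and lay between 25.1% and 37.7%.

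Of 153 named genes tried, 115 kept their direction and call under all 18 alternatives, 38 lost the call under at least 1 and 0 reversed. ALDOC lost it most often, under 12. Replicate letters come from the column names, and whether they mark shared days or batches is not given in the sources used here. The deviations of A from B correlated between groups at -0.02 to 0.07. Such a correlation across genes cannot decide whether the libraries were paired. With the letter as a replicate block, 278 genes were called higher and 677 lower, 275 of the 275 and 665 of the 666 among them, and the interaction passed for 77 and 60.

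Depth limits the low genes. Of the 275, 34 had 3 reads or fewer in both 0 h libraries, and of the 666, 95 had 3 reads or fewer in both 16 h libraries, and 8 and 19 of these had none.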

Other observations

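Gene families outside the lists were looked at after their values had been seen, and are given as counts and values only, to be read against the 1.86% of all tested genes called higher and the 4.5% called lower. Of 43 potassium channel and channel subunit genes tested (symbols starting with KCN), 9 were called lower after 16 h of TNF-α in mutp53-depleted cells and 1 higher, with a family median of -0.23 on the log2 scale. The largest falls were in inward rectifiers, KCNJ8 (-2.47), KCNJ5 (-2.33), KCNJ4 (-2.31) and KCNJ10 (-2.03). KCNJ8 went from 71.0 and 61.7 to 14.2 and 8.64 normalized reads and KCNJ5 from 588 and 557 to 131 and 97.5. Of 9 sodium channel genes, 4 were called lower, among them SCNN1A (-2.41), SCN4A (-2.10) and SCN3B (-1.71). SCNN1A encodes the α subunit of the epithelial sodium channel, and went from 397 and 404 to 65.4 and 85.2. In control cells 7 of the 43 potassium channel genes and 1 of the 9 sodium channel genes were called lower.

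Of 14 semaphorins, a family of guidance proteins, 5 were called lower, among them SEMA6B (-2.67), SEMA3A (-2.24) and SEMA3F (-1.95), and SEMA7A was called higher, from 44.9 and 48.0 to 319 and 352 normalized reads (2.83). Of 13 Wnt ligands, WNT7A (2.65) and WNT9A (2.20) were called higher, and WNT11 (-2.54) and WNT6 (-1.06) lower. Of 46 HOX genes and their antisense RNAs, 6 were called lower, with a median of -0.52, against 1 in control cells. Of 15 aldehyde dehydrogenases, 4 were called lower, ALDH1L2 (-1.55), ALDH3A1 (-1.53), ALDH6A1 (-1.24) and ALDH3B1 (-1.20). Among 242 solute carriers, 9 were called higher and 15 lower, against 11 and 20 in control cells. SLC5A1, which encodes the intestinal sodium-glucose transporter, went from 6.70 and 6.86 to 0.84 and 0. In the depleted libraries 1 read equals 0.67 to 1.37 normalized reads, so this fall rests on few reads. Of 25 keratins, 3 were called higher, KRT75 (2.55), KRT6A (1.22) and KRT7 (1.08), and 3 lower, KRT38 (-1.98), KRT71 (-1.17) and KRT74 (-1.15), and KRT75 went from 4.02 and 0 to 16.8 and 8.64. Differences between these counts and those in control cells were not tested.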
